A study of Mus musculus with 4 samples.

Results

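The interferon-induced transmembrane (Ifitm) genes described here are Ifitm1, Ifitm2, Ifitm3 and Ifitm6, 4 of the 17476 genes in the table. They were taken by name as a gene family, with the myeloid gene Ifitm6 set against the rest. They were chosen by family name and by their read counts in WT against mutant libraries, so their levels and fold changes are given as a description, with no test. All 4 passed the filter on low counts, as did Ifitm5 and Ifitm10, the other Ifitm genes of the table. Of the 7 Ifitm genes in the annotation, Ifitm7 was not analysed here.

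The study asked which genes and pathways differ between Trem2 mutant and wild-type (WT) myeloid-derived suppressor cells (MDSCs). MDSCs are immature myeloid cells of granulocyte or monocyte type that dampen T cell responses, and Trem2 is a myeloid receptor gene whose product senses lipids. The MDSCs were grown in vitro from bone marrow of C57BL/6 mice (WT) or of Trem2 mutant mice, whose strain the labels also give as C57BL/6. The grown cells were injected into NRG males, immunodeficient hosts without lymphocytes that keep myeloid cells of their own. The hosts were 6 weeks old when given subcutaneous TRAMP-C1 tumours, a mouse prostate cancer line, and received the MDSCs after 4 weeks. Tumours were collected after another 6 h, digestion lasted 45 minutes, and the sort kept cells with CD45, CD11b and GR1 on their surface. That gate named no marker separating injected cells from host cells, and the labels give neither the kind of Trem2 mutation nor the ages of the marrow donors. There were 2 libraries per genotype, named WT 1, WT 2, Trem2 mutant 1 and Trem2 mutant 3 after their columns. No label says whether each came from its own animal or culture, so p-values and SDs measure the spread among these 4 samples only, and that spread may be technical.

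IFITM proteins are small membrane proteins of the cell surface and the endosomes and lysosomes. They stiffen membranes against fusion and so keep enveloped viruses from entering the cytosol. IFITM3 is the member best known for restricting influenza virus in endosomes, and IFITM1 sits mainly at the plasma membrane. IFITM2 is close to IFITM3 in sequence. Ifitm6 is a rodent gene known for transcription in bone marrow and myeloid cells. The interferons that induce the family signal through JAK kinases to STAT and IRF factors. Those factors bind the interferon-stimulated response element (ISRE), or, for interferon gamma, the gamma-activated site (GAS).

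The 4 genes lay in one cluster on chromosome 7, spanning 63.1 kb between positions 140954837 and 141017924 (GRCm38, GENCODE M21). Ifitm2 (ENSMUSG00000060591, 140954837 to 140955987) was on the minus strand and Ifitm1 (ENSMUSG00000025491, 140967221 to 140969825) on the plus strand. Ifitm3 (ENSMUSG00000025492, 141009586 to 141010770) and Ifitm6 (ENSMUSG00000059108, 141015699 to 141017924) followed on the minus strand. The RefSeq promoter windows of all 4 (GRCm38.p6, 250 bases before to 50 after the start) are shown because the genes share interferon induction as a family but did not share these motifs. The RefSeq starts of Ifitm1 and Ifitm6 lie inside the longer GENCODE genes, so their windows leave out the farthest annotated starts. Capitals mark ISRE matches.
Ifitm2, chr7:140955912-140956211, minus strand: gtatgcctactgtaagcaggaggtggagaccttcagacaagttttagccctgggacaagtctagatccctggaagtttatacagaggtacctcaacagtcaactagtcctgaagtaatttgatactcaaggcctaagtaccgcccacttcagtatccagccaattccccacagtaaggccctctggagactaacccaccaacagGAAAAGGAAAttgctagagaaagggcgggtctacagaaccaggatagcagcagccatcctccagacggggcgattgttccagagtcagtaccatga
Ifitm1, chr7:140967826-140968125, plus strand: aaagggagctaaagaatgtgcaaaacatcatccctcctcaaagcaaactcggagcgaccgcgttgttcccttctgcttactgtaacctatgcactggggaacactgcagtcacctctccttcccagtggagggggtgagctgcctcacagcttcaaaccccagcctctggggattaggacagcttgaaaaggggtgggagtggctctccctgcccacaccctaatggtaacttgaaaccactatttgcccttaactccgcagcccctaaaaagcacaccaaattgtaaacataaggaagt
Ifitm3, chr7:141010695-141010994, minus strand: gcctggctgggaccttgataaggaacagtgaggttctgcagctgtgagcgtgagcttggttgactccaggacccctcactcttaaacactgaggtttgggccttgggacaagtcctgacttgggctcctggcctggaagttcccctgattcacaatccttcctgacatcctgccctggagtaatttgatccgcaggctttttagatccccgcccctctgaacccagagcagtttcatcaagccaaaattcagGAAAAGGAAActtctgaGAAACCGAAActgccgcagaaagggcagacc
Ifitm6, chr7:141016843-141017142, minus strand: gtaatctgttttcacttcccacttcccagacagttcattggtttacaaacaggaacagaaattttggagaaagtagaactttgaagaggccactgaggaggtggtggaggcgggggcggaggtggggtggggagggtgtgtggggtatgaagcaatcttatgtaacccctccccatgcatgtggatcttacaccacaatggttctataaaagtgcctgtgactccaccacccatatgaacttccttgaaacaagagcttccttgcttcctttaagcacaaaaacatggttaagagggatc

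The ISRE was searched on both strands as GAAA, any 2 bases and GAAA, which 1131 of 32851 RefSeq windows of this length held (3.44%). Ifitm2 held 1 match, GAAAAGGAAA, 46 bases before the start. Ifitm3 held the same letters and GAAACCGAAA, both just after the start, and neither Ifitm1 nor Ifitm6 held a match. GAS was searched as TTCNNNGAA, held by 8.30% of windows. It was found in Ifitm3 as TTCTGAGAA, overlapping the second ISRE match, and in Ifitm6 as TTCCTTGAA, 10 bases before the start. The motifs TTGCNNAA, for the granulocyte factors of the C/EBP family (10.8% of windows), and GAGGAAGT, for the myeloid factor PU.1 (3.2% of windows), had no match in the 4 windows. A match is only a description of the letters, and a missing one speaks for these windows alone.

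The coding sequences were 318 bases without the stop codon for Ifitm1, 432 for Ifitm2, 411 for Ifitm3 and 372 for Ifitm6 (GENCODE M21). Ifitm1, Ifitm2 and Ifitm3 were 80.9% to 81.8% identical to each other in aligned bases. Ifitm6 stood farther off, at 68.8% identity with both Ifitm1 and Ifitm2 and 64.3% with Ifitm3. A stretch of 60 aligned coding bases shows how alike the genes are where they are most alike, which bears on how reads can be assigned. Capitals mark bases that differ from Ifitm3, which number 3 in Ifitm1, 5 in Ifitm2 and 8 in Ifitm6.
Ifitm3, coding bases 210 to 269: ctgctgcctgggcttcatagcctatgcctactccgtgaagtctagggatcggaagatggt
Ifitm1, coding bases 144 to 203: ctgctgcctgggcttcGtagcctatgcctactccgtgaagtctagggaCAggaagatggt
Ifitm2, coding bases 207 to 266: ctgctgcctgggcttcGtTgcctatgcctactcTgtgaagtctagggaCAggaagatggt
Ifitm6, coding bases 180 to 239: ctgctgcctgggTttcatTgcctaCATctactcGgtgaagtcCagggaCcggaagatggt

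Likeness of this kind can split or lose reads, and the labels do not say how reads matching several genes were counted. Of the 75-base words of the annotated Ifitm2 exons, 42.0% also occurred in transcripts of other genes. The predicted gene Gm45717, on the same strand, overlapped 268 of the 655 exon bases of Ifitm2 (40.9%). For Ifitm1 the share of such words was 0.582% and for Ifitm3 0.662%, and Ifitm6 had none. Shorter words were shared more often. With 36-base words the share was 53.4% for Ifitm2, 17.0% for Ifitm3 and 9.16% for Ifitm1, and Ifitm6 again had none. At both word lengths the Ifitm2 values are the least certain of the 4.

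Total counts were 8037733 and 8077966 reads for the WT and 10306674 and 9820893 for the mutant libraries. Trem2 mutant 1 stood apart, with 13.9% of its reads on Gm42418, a locus overlapping ribosomal RNA sequence, against 0.258% to 1.04% in the other libraries. Reads on Trem2 numbered 406 and 477 in WT and 191 and 195 in mutant libraries, so Trem2 was lower, though still present, where the label says mutant. These counts cover the whole gene, so they do not tell whether the mutated part was transcribed. Xist, from the inactive X chromosome of females, had 2 and 3 reads in WT and 6928 and 9117 in mutant libraries, and Y-linked Kdm5d had 374 and 365 against 51 and 55. Other Y-linked genes differed less, with 226 and 337 against 104 and 98 reads for Uty, 488 and 604 against 338 and 318 for Eif2s3y, and 1030 and 1282 against 757 and 896 for Ddx3y. Reads of Xist and of Y-linked genes were thus both present in the mutant libraries, and the sex of the marrow donors is not given. The part of these differences in the Ifitm values was not tested. The sort gate genes Ptprc (CD45; 1114 to 1363 CPM) and Itgam (CD11b; 420 to 653 CPM) were abundant in every library. The GR1 antigen genes were low in WT, with Ly6g at 5.66 and 7.22 CPM and Ly6c2 at 26.9 and 24.8 CPM. In the mutant libraries Ly6g stood at 144 and 123 CPM and Ly6c2 at 378 and 282 CPM. CPM are read counts scaled to library size with TMM, a method that centres the bulk of genes between libraries.

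Each of the 4 genes was higher in both mutant libraries than in both WT libraries on this scale, by very unequal amounts. Of all 14239 tested genes, 28.9% showed the same separation. The family as a whole held 0.0553% (WT 1), 0.0545% (WT 2), 0.104% (Trem2 mutant 1) and 0.113% (Trem2 mutant 3) of reads. In these bulk samples, a larger share of cells transcribing a gene and more RNA per cell cannot be told apart.

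Ifitm6 differed most. It had 127 and 115 reads in WT 1 and WT 2, and 1476 and 1257 in Trem2 mutant 1 and Trem2 mutant 3. These were 13.8 and 12.6 CPM in WT libraries and 177 and 135 CPM in the mutant ones. Both mutant libraries lay far above both WT libraries, and Trem2 mutant 1 was the higher of the pair. Means were 13.2 ± 0.868 CPM (WT) and 156 ± 29.5 CPM (mutant) (SD, n = 2 each). The fold was 11.8, a log2 fold change of 3.56 (SE 0.154). Only 38 of the 14239 tested genes had a higher log2 fold change.

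Ifitm1, the plasma membrane member, had the highest level per kb of exon in every library. It stood at 307 and 312 CPM in WT 1 and WT 2, and at 823 and 752 CPM in Trem2 mutant 1 and Trem2 mutant 3. The WT libraries were nearly equal, and the gap between genotypes was many times the gap within either. The means were 309 ± 3.07 and 788 ± 49.8 CPM (SD, n = 2 each), 2.54-fold higher in the mutant libraries (log2 fold change 1.35, SE 0.0928).

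Ifitm3, the endosomal member, stood at 105 and 97.9 CPM in WT 1 and WT 2, and at 204 and 213 CPM in Trem2 mutant 1 and Trem2 mutant 3. Its groups were well separated and each was tight. The means were 101 ± 4.72 and 208 ± 6.69 CPM (SD, n = 2 each), a 2.06-fold difference (log2 fold change 1.04, SE 0.0814).

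Ifitm2 had the smallest difference. It stood at 58.1 and 59.9 CPM in WT 1 and WT 2, and at 79.1 and 90.8 CPM in Trem2 mutant 1 and Trem2 mutant 3. The groups did not overlap, but the mutant libraries lay only 1.44-fold above WT (59.0 ± 1.26 and 84.9 ± 8.31 CPM, SD, n = 2 each; log2 fold change 0.53, SE 0.0970). Scaled by library totals alone, Ifitm2 was at 66.4 and 67.7 CPM in WT libraries and at 64.0 and 86.0 CPM in the mutant ones, so that there the groups overlapped. The other 3 genes kept their groups apart on that scale, with log2 fold changes of 0.97 for Ifitm1, 0.67 for Ifitm3 and 3.17 for Ifitm6. That scaling moved the median over all tested genes from −0.02 to −0.40 on the log2 scale.

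**Figure D1:**
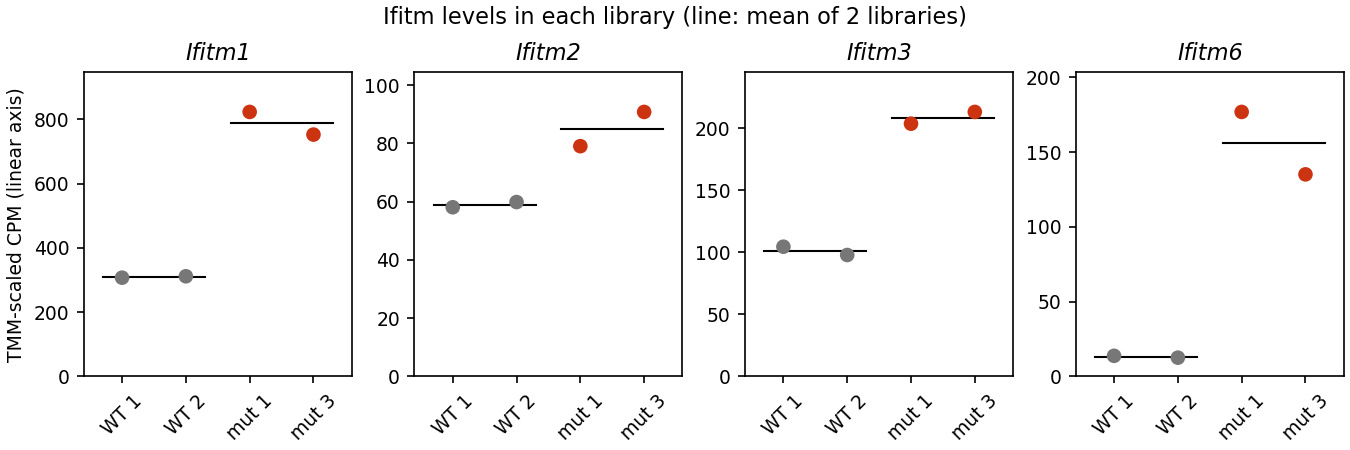
Normalised read count (TMM-scaled CPM, linear axis from 0, with its own range in each panel) of each Ifitm gene in the 4 libraries, with points for libraries and lines for group means. Ifitm6 moves from 12.6 to 13.8 CPM in WT to 135 to 177 CPM in the mutant libraries, a wider gap relative to WT than for Ifitm1, Ifitm2 and Ifitm3.

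Levels of different genes were compared per kb of annotated exon. In WT libraries the order was Ifitm1 (283 CPM per kb), Ifitm3 (149), Ifitm2 (90.1) and Ifitm6 (14.6), and genes next to each other in that order did not overlap in their library values. In the mutant libraries it was Ifitm1 (720 CPM per kb), Ifitm3 (307), Ifitm6 (172) and Ifitm2 (129.7). Ifitm6 thus stood last in WT libraries and above Ifitm2 in mutant libraries. There its values of 195 and 149 CPM per kb lay above the 121 and 139 of Ifitm2, by a margin smaller than the spread between the 2 Ifitm6 values. Reads on the 40.9% of Ifitm2 exon bases shared with Gm45717 may be missing from the Ifitm2 counts. The Ifitm2 level per kb may then be too low, so the order of these 2 genes in the mutant libraries is not settled.

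The make-up of the family, which needs no scaling between libraries, shifted towards Ifitm6. Ifitm6 supplied 2.86% and 2.61% of family reads in WT 1 and WT 2 (95% exact binomial intervals 2.39% to 3.39% and 2.16% to 3.13%). It supplied 13.8% and 11.3% in Trem2 mutant 1 and Trem2 mutant 3 (13.1% to 14.5% and 10.8% to 11.9%). The intervals cover counting error within each library only. No test compared the genotypes, because the members were chosen with this contrast known. The Ifitm2 share went the other way, from 12% and 12.4% in WT to 6.17% and 7.62% in mutant libraries. Ifitm3 differed less, at 21.6% and 20.3% in WT and 15.9% and 17.9% in mutant libraries. The share of Ifitm1 stayed within 63.1% to 64.7% in all 4 libraries. The larger Ifitm6 share thus went with smaller Ifitm2 and Ifitm3 shares and a nearly constant Ifitm1 share. Shares must add up to the whole, so a smaller share is not a lower level. In TMM-scaled CPM, Ifitm2 was 1.44-fold and Ifitm3 2.06-fold higher in the mutant libraries.

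The ratios between members show the same contrast. For each read of Ifitm3, Ifitm6 had 0.132 and 0.129 reads in WT 1 and WT 2, and 0.868 and 0.634 in Trem2 mutant 1 and Trem2 mutant 3. Ifitm6 was thus a minor transcript beside Ifitm3 in WT libraries and of its order in the mutant libraries. Ifitm1 had 2.94 and 3.18 reads per Ifitm3 read in WT and 4.04 and 3.53 in mutant libraries, a much smaller difference. In counted reads Ifitm6 overtook Ifitm2, with 0.238 and 0.210 reads per Ifitm2 read in WT and 2.24 and 1.49 in mutant libraries. The Ifitm2 counts may lack reads from the bases shared with Gm45717, which would make these ratios too high.

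**Figure D2:**
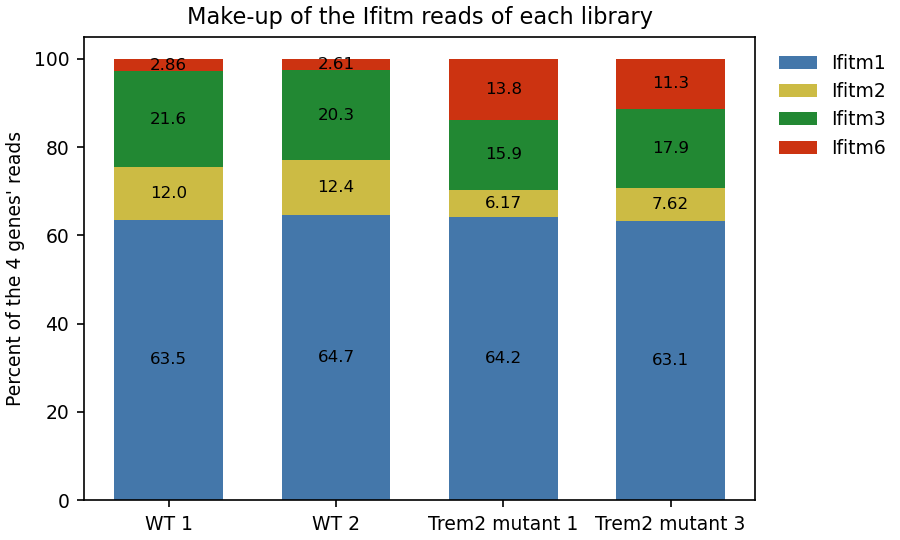
Share of the summed Ifitm1, Ifitm2, Ifitm3 and Ifitm6 reads (percent) held by each gene in the 4 libraries. The Ifitm6 part is 2.61% to 2.86% in WT and 11.3% to 13.8% in mutant libraries, and Ifitm1 holds 63.1% to 64.7% throughout.

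The members also differed in how the mutant libraries differed from each other. From Trem2 mutant 1 to Trem2 mutant 3 the log2 CPM differed by −0.39 for Ifitm6 and −0.13 for Ifitm1, but by 0.20 for Ifitm2 and 0.07 for Ifitm3. Trem2 mutant 1, the library with the Gm42418 reads, was thus the higher for Ifitm6 and Ifitm1 and the lower for Ifitm2 and Ifitm3. The median absolute difference over all tested genes was 0.18 in this pair. Between the WT libraries the members differed by −0.13 to 0.04, against a median of 0.15. Among genes with a mean of at least 5 CPM, as the members are, the medians were 0.14 in the mutant pair and 0.11 in the WT pair. The Ifitm6 difference of −0.13 between the WT libraries was larger in size than the latter.

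The genes whose pattern over the 4 libraries was most like each member were ranked by the root mean square difference of log2 CPM, each gene centred on its own mean, among 9173 genes. For Ifitm6 the first was Ly6c2 (0.06), which encodes a GR1 antigen and has the close copy Ly6c1, followed by Cacna2d2 (0.10), a calcium channel subunit gene. Then came Stfa2 (0.14), a stefin gene with near-identical copies, Lipg (0.19), the endothelial lipase gene, and Lcn2 (0.22), which encodes neutrophil lipocalin. Their log2 fold changes were 3.67, 3.73, 3.85, 3.90 and 3.97 in that order, against 3.56 for Ifitm6. For Ifitm1 the list was Cystm1, the kinase gene Lrrk2, the actin-binding gene Lima1, the sterol synthesis gene Msmo1 and the protein kinase C gene Prkcb. For Ifitm3 it was the kinase gene Map3k9, Acpp, Cped1, Lin28a and Arhgap15. For Ifitm2 it was the niacin receptor gene Hcar2, the myeloid receptor gene Clec5a, Tmem198b, the glucocorticoid-induced gene Tsc22d3 and Cby1. No gene stood in more than 1 of the 4 lists. Among the members themselves, Ifitm1 and Ifitm3 were nearest (0.17), and Ifitm6 was 1.10 from Ifitm1, 1.25 from Ifitm3 and 1.52 from Ifitm2. With 4 libraries of 2 genotypes, such likeness mostly describes the size of the gap between genotypes.

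**Figure D3:**
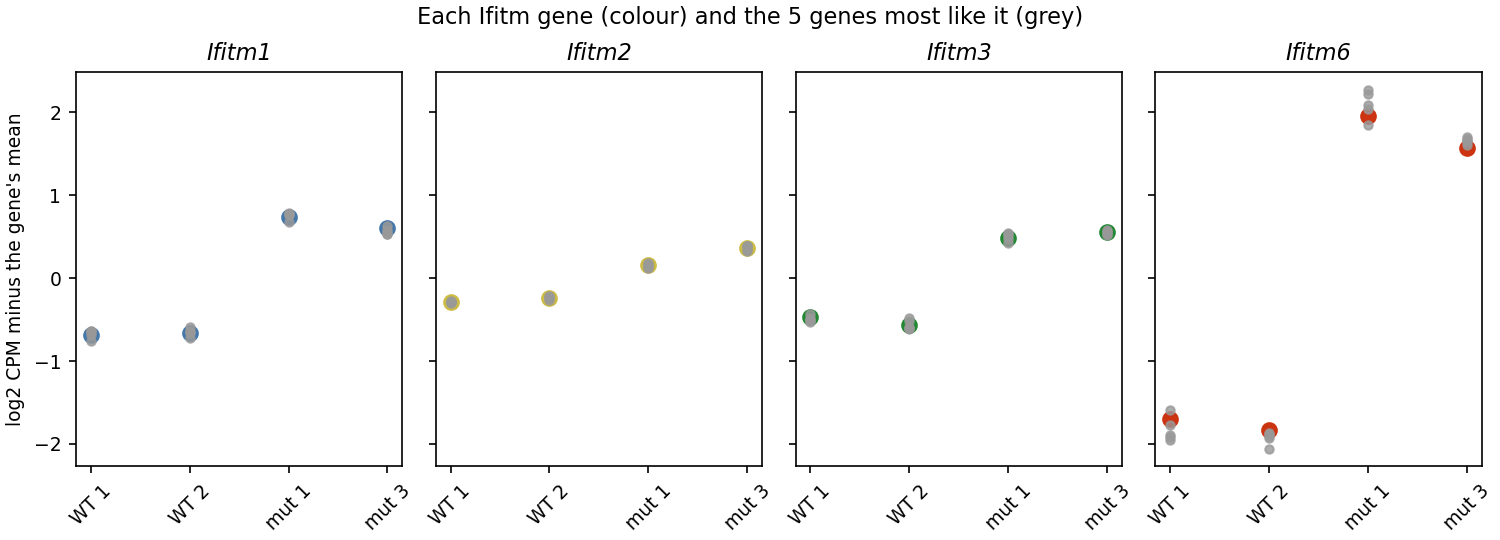
Log2 CPM minus each gene's own mean in the 4 libraries, for each Ifitm gene (large coloured points) and the 5 genes nearest to it (grey points). The Ifitm6 panel spans the widest range, and its neighbours Ly6c2, Cacna2d2, Stfa2, Lipg and Lcn2 lie farther from it than those of the other members.

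Markers of cell types that the sort could hold moved with genotype. All 19 granulocyte markers were in the table. Their levels summed to 7584 to 7721 CPM in WT libraries and to 31602 to 39105 CPM in the mutant ones. Of the 19, 18 rose, against 9.55% of all 14239 tested genes (edgeR quasi-likelihood test, adjusted p under 0.05). They differed by unequal amounts, with log2 fold changes from 0.08 for Csf3r, which did not pass, to 6.63 for Ltf. The abundant Csf3r stood at 1368 and 1435 CPM in WT libraries and at 1396 and 1567 CPM in the mutant ones. The 11 monocyte markers summed to 1990 to 2125 CPM in WT libraries and to 2636 to 3275 CPM in the mutant ones. Of 10 tested, 6 rose and 0 fell, against 9.55% and 3.6% of all tested genes. Their log2 fold changes ran from −0.28 for the abundant Csf1r, which did not pass, to 3.67 for Ly6c2. The 11 macrophage markers, Trem2 among them, summed to 2012 to 2047 CPM in WT libraries and to 1580 to 1766 CPM in the mutant ones. The sum and the members differed in direction: 5 of the 11 (C1qa, C1qb, C1qc, Apoe and Fcgr1) rose, 2 (Trem2 and the abundant Gpnmb) fell, and the median log2 fold change was 0.84. Without WT 1, 1 of the 11 rose. The lists below had far lower sums. Of 8 eosinophil markers 7 were in the table, summing to 99.8 to 101 CPM in WT libraries and to 211 to 239 CPM in the mutant ones, with Ear1 at 0 in WT. Fibroblast, erythroid, endothelial, epithelial, T and B cells are types that a gate on CD45, CD11b and GR1 should remove. The 8 fibroblast markers summed to 111 to 160 CPM in WT libraries and to 405 to 450 CPM in the mutant ones. Erythroid markers, 4 of 6 in the table, summed to 6.74 to 27.6 CPM in WT libraries and to 61.3 to 164 CPM in the mutant ones. Endothelial (5 of 7), epithelial (4 of 6), B cell (6 of 6) and T and NK cell (4 of 7) markers were not higher in sum in both mutant libraries. Of the 3 endothelial markers tested, Pecam1 rose (0.52 on the log2 scale) and Vwf fell (−0.71). The part of these cell types in the Ifitm differences was not tested.

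The interferon pathway around the family was read through 5 lists of its other genes (ligands, receptors, transducers, inhibitors and antiviral targets), tested in the edgeR fit over all genes. Across all 14239 tested genes, 9.55% rose and 3.6% fell in the mutant libraries, with a median log2 fold change of −0.02. Of 56 tested genes on these lists, 22 rose (39.3%) and 1 fell, with a median log2 fold change of 0.34. Without WT 1, 11 rose and 0 fell, against 489 and 92 of all genes, and with library totals alone 10 rose and 5 fell, against 650 and 4365. Adding the lists of entry inhibitors, IFITM3 partners and dispanins described further on gave 79 tested genes, of which 24 rose and 1 fell. Most of the rises were antiviral targets, and the lists of receptors, transducers and inhibitors gave 1 each.

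Of 10 interferon ligand genes, Ifnk alone was in the table, at 0.958 to 3.37 CPM, with a log2 fold change of −0.89 (SE 0.445, adjusted p = 0.225). Of 6 interferon receptor chains, 1 rose (16.7%, against 9.55% of all tested genes), the interferon lambda receptor gene Ifnlr1, by 0.45 on the log2 scale (SE 0.0984, adjusted p = 0.0242). Its call was lost without WT 1, without WT 2, with library totals alone and in DESeq2, and without Trem2 mutant 1 a second receptor gene passed. The type I receptor genes Ifnar1 and Ifnar2 had log2 fold changes of 0.0041 (SE 0.0847) and 0.20 (SE 0.101) and did not pass. Ifngr1 and Ifngr2, the interferon gamma receptor genes, had 0.04 and −0.05.

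Among 10 signal transducers 1 rose, a share near the 9.55% of all tested genes. It was Irf7, the factor that amplifies type I interferon, which stood at 72.2 and 70.5 CPM in WT libraries and at 117 and 107 CPM in the mutant ones, with a log2 fold change of 0.65 (SE 0.0832, adjusted p = 0.00286). With library totals alone its log2 fold change was 0.27 and the call was lost. Stat2 (0.45, SE 0.165) and Irf9 (0.29, SE 0.0973), which act at the ISRE, did not pass. Without WT 2, 2 transducers rose, and without Trem2 mutant 3, 4 rose. Among 7 inhibitors of the pathway 1 rose (14.3%, against 9.55%), Socs3, which blocks cytokine signals through JAK kinases. It stood at 541 and 570 CPM in WT libraries and at 897 and 1426 CPM in the mutant ones, with a log2 fold change of 1.06 (SE 0.196, adjusted p = 0.0125). Its call was lost without WT 1 (adjusted p = 0.0834) and without WT 2 (adjusted p = 0.0520). The log2 fold change of Usp18, the feedback inhibitor of the type I receptor, was 0.34 (SE 0.127), which did not pass.

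Antiviral targets of interferon were the one list with many calls. Of 32 tested (33 in the table), 19 rose (59.4%), 1 fell and 12 did not pass, and the median log2 fold change was 0.64. The shares over all 14239 tested genes were 9.55% higher and 3.6% lower. Summed over the list, the level was 1484 and 1535 CPM in WT libraries and 2274 and 2241 CPM in the mutant ones. Rsad2, which encodes viperin, stood at 89.9 and 100.5 CPM in WT libraries and at 195 and 199.9 CPM in the mutant ones (log2 fold change 1.05, SE 0.0865, adjusted p = 4.43e-04). Its neighbour Cmpk2, a mitochondrial nucleotide kinase gene, was at 21.2 and 17.2 CPM in WT and at 52.7 CPM in both mutant libraries (1.46, SE 0.126, adjusted p = 5.72e-04). Samd9l, a restriction factor gene, rose by 1.05 (SE 0.0944, adjusted p = 6.47e-04) and Ifi27l2a by 1.0 (SE 0.102, adjusted p = 0.00108) on the log2 scale. These 4 genes were named for the lowest p on the list. In each, both mutant libraries lay above both WT libraries, as in 28.9% of all tested genes. The gene that fell, Xaf1, which promotes apoptosis, was at 21.4 and 20.8 CPM in WT libraries and at 12 and 11.7 CPM in the mutant ones (−0.83, SE 0.137, adjusted p = 0.00797). It was named after its values were seen. Without WT 1, 10 of the list rose and 0 fell, and with library totals alone 9 rose. DESeq2 called 14 higher and limma-voom 19.

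On the log2 scale the Ifitm genes lay within and beyond this list. Its members ranged from −0.83 to 1.46, so that Ifitm2 at 0.53, Ifitm3 at 1.04 and Ifitm1 at 1.35 were inside that range and Ifitm6 at 3.56 was outside it. Of the tested genes on the list, only Cmpk2 at 1.46 lay above Ifitm1. The granulocyte markers ranged from 0.08 to 6.63, so each Ifitm gene was inside their range too. Their median, 3.97, was above the Ifitm6 value. The part of either list in the Ifitm differences was not tested.

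**Figure D4:**
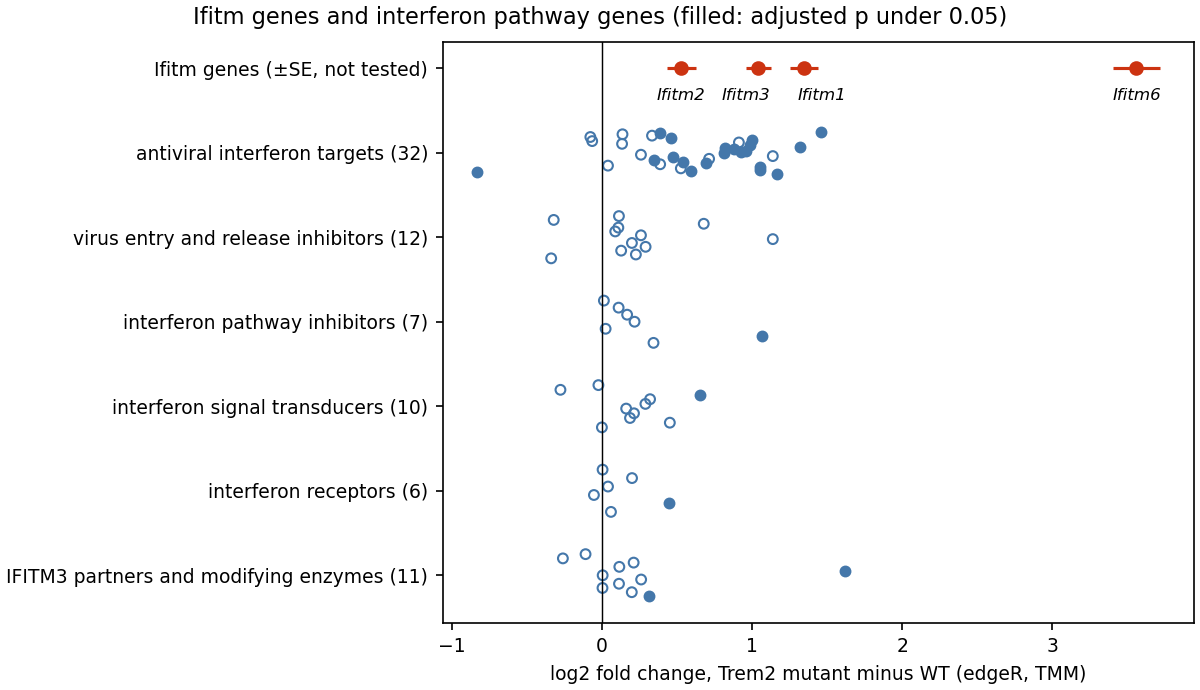
Log2 fold change, Trem2 mutant minus WT, of the Ifitm genes (red, with SE, no test) and of each tested gene of the pathway lists (blue, filled where the adjusted p was under 0.05). Among the blue points, the antiviral targets hold most of the filled ones, and Ifitm6 at 3.56 lies to the right of every listed gene.

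A list of other inhibitors of virus entry and release, the functional neighbours of IFITM proteins, gave no call. It also held genes that act at other steps, such as Samhd1, which depletes nucleotides. Of 12 tested, 0 rose and 0 fell in edgeR, with 2 at an unadjusted p under 0.05, 0 in DESeq2 and 1 in limma-voom. The median log2 fold change was 0.16. Over all tested genes 9.55% rose and 3.6% fell in edgeR, so a count of 0 among 12 is near that background. The limma-voom call was Samhd1 (0.29, SE 0.0887 and adjusted p = 0.0701 in edgeR). Mx2, an interferon-induced GTPase gene, had 1.14 (SE 0.353, adjusted p = 0.0732) at only 1.31 to 3.98 CPM. Bst2, encoding tetherin, had −0.32 (SE 0.146), and Ly6e, for a surface protein that hinders virus entry, at 495 to 585 CPM the most abundant beside Samhd1 and Serinc3, had 0.11 (SE 0.0977). Without Trem2 mutant 1, 1 of the list rose.

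Of 11 tested genes for enzymes that modify IFITM3 and for proteins that bind it, 2 rose (18.2%, against 9.55% of all tested genes) and 0 fell, with a median log2 fold change of 0.12. Nedd4, the ubiquitin ligase that sends IFITM3 to degradation, stood at 24 and 23.2 CPM in WT libraries and at 80.5 and 64.5 CPM in the mutant ones. Its log2 fold change was 1.62 (SE 0.130, adjusted p = 4.26e-04), larger than that of Ifitm3 itself. The protease gene Zmpste24, a partner of IFITM3 in restriction, passed narrowly (0.32, SE 0.0835, adjusted p = 0.0458). Its call was lost without WT 1, without WT 2, with upper-quartile scaling, without the filter on low counts, in DESeq2 and in limma-voom, and with library totals alone its value was −0.06. Setd7, a methyltransferase gene for IFITM3, had 0.26 (SE 0.0779) and Cd81, a tetraspanin gene, −0.26 (SE 0.0794), and neither passed. Setd7 passed without Trem2 mutant 1 (0.30, adjusted p = 0.0406), and Cd81 with upper-quartile scaling (−0.30, adjusted p = 0.0476) and with library totals alone (−0.63, adjusted p = 0.00427). Zdhhc20, for an acyltransferase that palmitoylates IFITM3, had 0.20 (SE 0.0901). Of the wider dispanin family, Prrt1 and Tmem91 were tested and neither passed in edgeR (0 at an unadjusted p under 0.05), DESeq2 or limma-voom.

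The other Ifitm genes of the table had few reads. Ifitm5, a gene of bone-forming cells just beside Ifitm2 (140948958 to 140950291, minus strand), had 17 and 45 reads in WT and 29 and 47 in mutant libraries. Its groups overlapped, and its log2 fold change of 0.34 (SE 0.446, adjusted p = 0.653) turned to −0.20 without WT 1. Ifitm10 (142325837 to 142373753, minus strand) had 20 and 10 reads in WT and 26 and 19 in mutant libraries, with 0.64 (SE 0.434, adjusted p = 0.360).

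Genes beside the cluster gave no call in edgeR. Within 200 kb on either side, 36 other genes were annotated, 20 were in the table and 12 were tested. Of these 0 rose and 0 fell, with 2 at an unadjusted p under 0.05, and the median log2 fold change was −0.01. Over all tested genes 9.55% rose and 3.6% fell, so a count of 0 among 12 genes is near that background. The 2 at an unadjusted p under 0.05 were Pgghg (0.63, SE 0.177, adjusted p = 0.0568) and Pkp3 (0.84, SE 0.294, adjusted p = 0.103), named after their values were seen. DESeq2 called 1 gene higher and limma-voom called 0. Without Trem2 mutant 1, and likewise without Trem2 mutant 3, 1 gene rose, and with library totals alone 3 fell, where 4365 of all 14239 genes fell. The range of the 12 was −0.33 to 0.84, so Ifitm1, Ifitm3 and Ifitm6 lay above each of them and Ifitm2 did not.

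**Figure D5:**
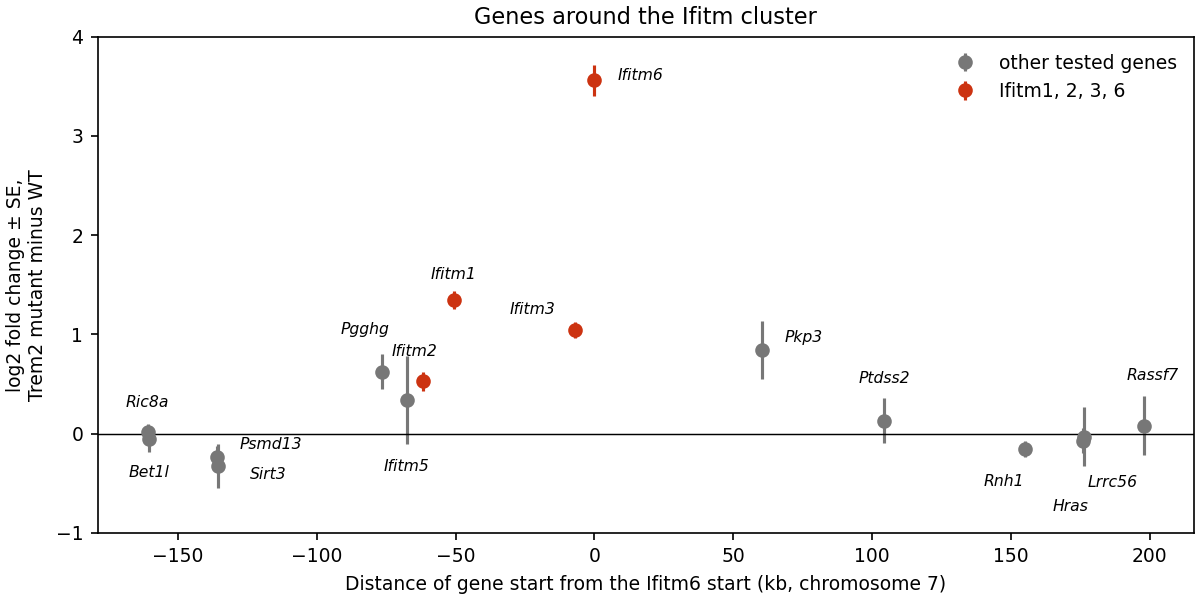
Log2 fold change, Trem2 mutant minus WT, with SE, of the tested genes around the cluster, against the distance of the gene start from the Ifitm6 start (kb). The 4 Ifitm genes (red) run from 0.53 to 3.56, and the 12 other genes (grey) run from −0.33 to 0.84.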

How the data were processed

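RNA was measured in 4 libraries, 2 per genotype. The labels' protocols give rRNA depletion and a NextSeq instrument. The deposited values are raw counts per Ensembl gene with no normalization by the authors. The submitters' processing notes name the build GRCm38 (mm10) and the tools STAR 2.5.2a, FastQC and DESeq2. They name no counter, strand setting or annotation. Of 17476 IDs, 17422 matched GENCODE M21 and 54 did not.

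Counts were fitted in edgeR 4.0.16 (R 4.3.3) with filterByExpr, TMM, glmQLFit, glmQLFTest (two-sided) and genotype as the only term. Benjamini-Hochberg adjustment ran over 14239 genes at 0.05. Degrees of freedom were 2 (residual) and 5.71 (prior), at a common coefficient of variation of 0.106. SE is the log2 fold change over the root of F. Log2 CPM used a prior count of 2. A floor of 3 counts was 0.291 to 0.373 CPM. On library totals, without TMM, library pairs differed beyond sampling noise (ratio 2.15 in WT, 8.43 in mutant), so each counted as 1 library.

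The members and lists were chosen with earlier results of these data known. Named genes are the members, other Ifitm genes, the 5 genes nearest to each member with a mean of at least 5 CPM and no predicted-gene name, up to 4 genes per list by lowest p, and called genes within 200 kb. Further list genes given as values were named for their role after the values were seen. Alternatives were RLE, upper-quartile and library-total scaling, DESeq2 1.42.0, limma-voom (limma 3.58.1), no filter on low counts, a stricter one (10 or more reads in 2 libraries and a mean CPM of 1 or more), leaving out 2622 noncoding and mitochondrial genes, leaving out each library, and shares per kb of exon.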

Additional observations from a re-analysis of the deposited data

How the results depend on the processing

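No paired analysis was possible because the WT columns are numbered 1 and 2 but the mutant columns 1 and 3. The sample titles number the mutant samples 1 and 2, so the mutant column 3 could not be matched to a title number and the groups share 1 column number. Where 1 library was left out, its lone partner was taken to vary as the other genotype did. The 1360 higher genes became 489 to 2090 with a library left out and 650 with library totals alone. The 513 lower genes became 92 to 912, 4365 with library totals alone and 201 in DESeq2. With a library left out, the log2 fold changes ran from 1.29 to 1.43 for Ifitm1, 0.44 to 0.63 for Ifitm2, 0.99 to 1.09 for Ifitm3 and 3.36 to 3.76 for Ifitm6. With library totals alone they were 0.97, 0.16, 0.67 and 3.17 in that order. The median over all tested genes moved as well, from −0.02 with TMM to −0.40 with library totals alone. What made the 2 scalings differ was not tested. Of the genes on pathway lists, 12 to 29 rose and 0 to 2 fell with a library left out, 11 and 9 with library totals alone, and 2 fell with upper-quartile scaling. Beside the cluster, 0 to 1 genes rose with a library left out, 1 with RLE, in DESeq2 and without noncoding and mitochondrial classes, and 3 fell with library totals alone.

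Library totals alone turned Ifitm5 (−0.022), Ifnar2 (−0.16), Il10rb (−0.31), Irf9 (−0.091), Jak2 (−0.15), Ptpn2 (−0.20), Ptpn6 (−0.16), Ptprc (−0.13), Samhd1 (−0.079), Setd7 (−0.11), Usp18 (−0.024) and Zmpste24 (−0.057) below 0. With a library left out, Ifitm5 ran from −0.20 to 1.20, Il10rb from −0.0051 to 0.13 and Ifngr2 from −0.17 to 0.079. Per kb of exon, the shares in WT 1, WT 2, Trem2 mutant 1 and Trem2 mutant 3 were 52.1%, 53.3%, 55.0% and 53.3% for Ifitm1, and 16.5%, 17.1%, 8.82% and 10.7% for Ifitm2. They were 28.6%, 27.0%, 21.9% and 24.4% for Ifitm3 and 2.83%, 2.60%, 14.3% and 11.6% for Ifitm6. RLE scaling and the stricter filter moved each Ifitm log2 fold change by less than the spread between replicates. With 2 libraries per group and 2 residual degrees of freedom, the precision rests largely on the spread pooled over genes.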
